A study of Rattus norvegicus with 24 samples.

Results

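Fibroblasts and fibro-adipogenic progenitors are the connective tissue cells that lie between muscle fibres, and 10 genes used to recognise them were followed here: Pdgfra, Cd34, Dpt, Pi16, Thy1, Mfap5, Smoc2, Osr1, Fbln1 and Gsn. They were taken by gene symbol from the array annotation of 20024 named genes and were read by 12 of 30367 probes, with a second probe for Pi16 and for Smoc2. The muscle was soleus, which is mostly slow-twitch, of female rats of about 14 weeks, measured on Agilent one-colour arrays with 8 rats per group and an array for each. Sedentary rats (SED) spent 8 weeks in normal cages, detrained rats (DETR) had running wheels for 4 weeks and then normal cages for 4 weeks, and trained rats (TR) had wheels for 8 weeks. All groups, the sedentary controls included, ran for 1 h at 20 m/min and were sampled 24 h later, so no group is muscle at rest. The comparisons address whether earlier running, kept up or stopped, goes with different levels of these genes after the same bout.

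Fibro-adipogenic progenitors carry the PDGF receptor alpha, clear debris and support satellite cells after damage, and can turn into fibroblasts or adipocytes. They share many genes with tendon and perivascular fibroblasts, and Cd34 is also made by capillary endothelium and satellite cells. In whole muscle, fewer cells of a type and less RNA per cell cannot be told apart.

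Levels are log2 processed signals relative to the 75th percentile of the same array, so 0 is that percentile. They were not compared between probes, because probes differ in how strongly they bind. Differences are on the log2 scale and are followed by their standard error (SE). A limma model fitted all 24 arrays with group and slide as terms, and p was adjusted over 20324 features. The 3 comparisons share arrays and are not independent of each other.

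The arrays lay on 3 slides. SED was spread over all of them (2, 4 and 2 arrays), DETR lay on slides 1 and 3 (6 and 2), and TR on slides 2 and 3 (4 each). Slide 3 was dim: its arrays had a 75th percentile of 95.5 to 339, while those of slide 1 reached 817 to 1184 and those of slide 2 reached 562 to 1493. The lowest values belonged to TR 7 (95.5), TR 8 (124.5) and TR 5 (133.2). On slide 3 the TR arrays filled array row 2 and the other arrays row 1, so row and group cannot be told apart there. TR 2 on slide 2 was the noisiest array, with a median coefficient of variation between spots of a probe of 24.4%. Of the slow fibre genes, 9 of 9 were measured. Tnnt1 and Myh7 were well above background on all 24 arrays, as were the fast fibre genes Tnnc2 and Atp2a1. These readings do not tell soleus from another muscle, so the tissue is taken from the label.

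Of the 10 markers, 9 were well above background on at least 8 arrays and were tested. Thy1, a cell surface glycoprotein of fibroblasts, was well above background on 5 of 24 arrays (1 SED, 3 DETR and 1 TR) and was not tested. Its level was -6.88 at the lowest, -6.12 at the median and -5.35 at the highest in SED. The same 3 values were -6.40, -6.03 and -3.91 in DETR, and -6.63, -5.72 and -4.40 in TR. The highest Thy1 readings of DETR and TR came from slide 3, where no array measured it well above background.

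No feature on the array, and so no marker, passed an adjusted p of 0.05 in any comparison in limma. The share of all features called was 0% for detrained minus sedentary, 0% for trained minus sedentary and 0% for trained minus detrained. At an unadjusted p under 0.05, 802, 2120 and 2018 features were counted in these comparisons. Detrained minus sedentary had 1 of 9 markers on the higher side, against 3.04% of all features, and 0 on the lower side, against 0.91%. Trained minus sedentary had 0 of 9 higher, against 6.32%, and 2 lower, against 4.11%. Trained minus detrained had 0 of 9 higher, against 4.2%, and 2 lower, against 5.73%. All of these counts came from Cd34 and Smoc2.

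The markers did not share a direction. Between trained and sedentary muscle 5 differences were above 0 (Pdgfra, Osr1, Fbln1, Gsn and Mfap5) and 4 below (Cd34, Dpt, Smoc2 and Pi16). Their median was 0.05, beside 0.01 over all features. Between trained and detrained muscle 4 were above 0 and 5 below, with a median of -0.09 beside -0.03 over all features. Between detrained and sedentary muscle 4 were above 0 and 5 below, with a median of -0.01 beside 0.03. Of all features, 58.0% were above 0 for detrained minus sedentary, 52.8% for trained minus sedentary and 45.5% for trained minus detrained. The log2 of the summed level of the 9 markers ran from 5.43 to 5.71 in SED. It ran from 5.31 to 5.81 in DETR and from 5.36 to 5.91 in TR, so the groups overlapped in this sum. A sum weights each probe by its signal, so here and in the lists below it mostly follows the brightest probes. Among the markers these are Gsn, Smoc2 and Mfap5, with mean levels of 4.82, 3.07 and 2.88, and the sum says little of the others.

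**Figure D1:**
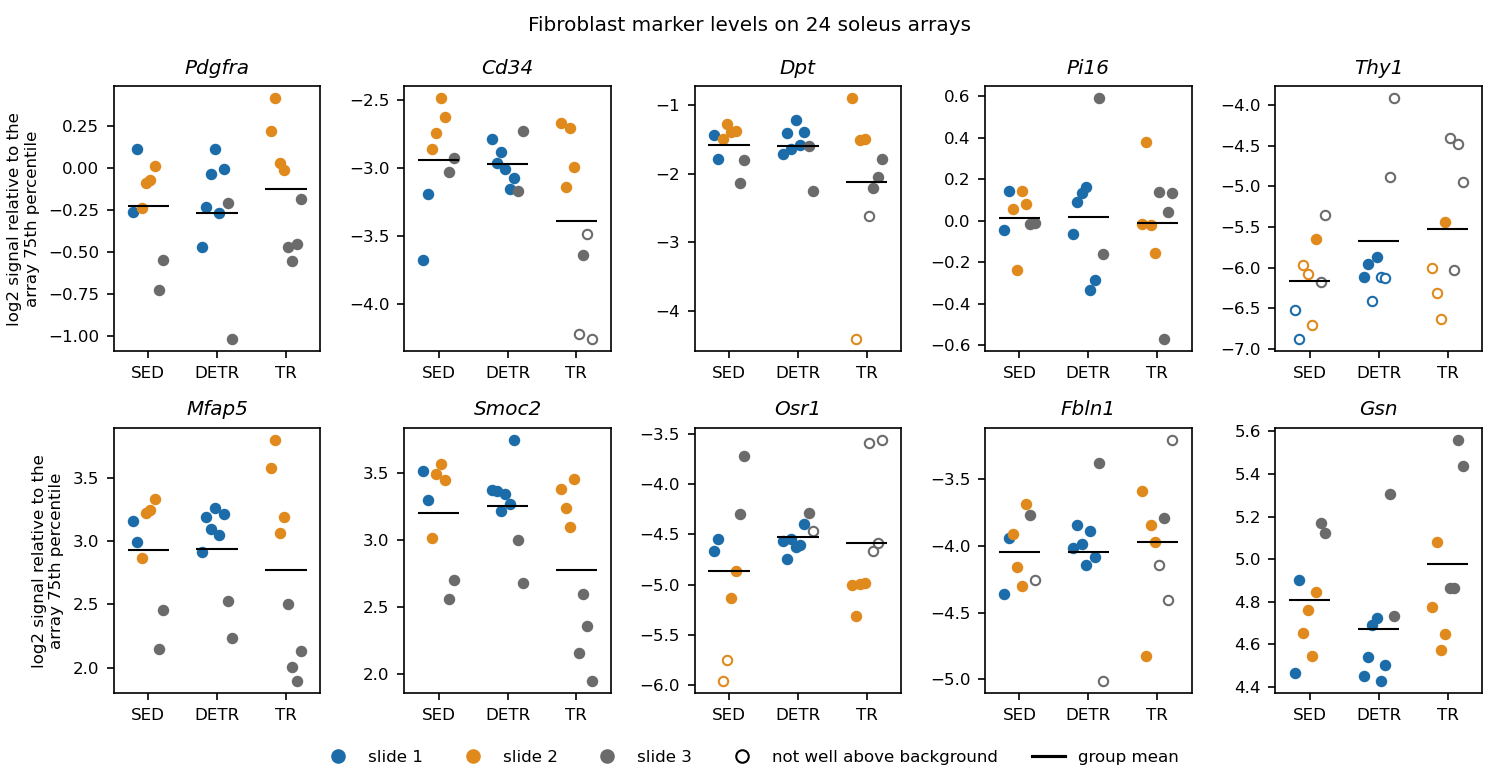
Level of each marker on each array (y axis, log2 signal relative to the array's 75th percentile) by group, with the bar at the group mean, colour for slide and open points for arrays not well above background. Within TR, the 4 slide 3 arrays have the lowest Cd34 and Smoc2 values, and Dpt has 1 point at -4.41 on TR 2.

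The upstream DNA of the markers is shown for the genes that moved most alike across arrays (Pdgfra and Gsn) and for Cd34 and Dpt, whose differences between trained and sedentary muscle were below 0. Promoters of 7 of the 10 markers were matched in the RefSeq table of GRCr8; Smoc2, Thy1 and Fbln1 had no entry there. Each sequence is the 250 bases before the transcript start, 5′ to 3′ on the gene's strand, and lies at chr14:33408517-33408766 (minus strand), chr3:39008682-39008931 (plus), chr13:109008536-109008785 (plus) and chr13:79656091-79656340 (plus). Capitals mark matches, on either strand, to the TATA box (TATAAA), the CCAAT box, the GC box (GGGCGG), the motif of TEAD factors (GGAATG) or the motif of AP-1 (TGANTCA).
Pdgfra: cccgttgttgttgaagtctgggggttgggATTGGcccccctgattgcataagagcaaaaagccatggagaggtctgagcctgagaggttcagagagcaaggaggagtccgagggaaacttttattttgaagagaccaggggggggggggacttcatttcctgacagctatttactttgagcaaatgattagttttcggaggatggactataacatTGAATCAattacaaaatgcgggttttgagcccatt
Gsn: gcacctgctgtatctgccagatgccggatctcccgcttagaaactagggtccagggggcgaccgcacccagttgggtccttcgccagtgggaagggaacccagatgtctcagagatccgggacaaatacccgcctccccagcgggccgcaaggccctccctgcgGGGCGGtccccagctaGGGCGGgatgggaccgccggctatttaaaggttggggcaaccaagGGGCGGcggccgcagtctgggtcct
Cd34: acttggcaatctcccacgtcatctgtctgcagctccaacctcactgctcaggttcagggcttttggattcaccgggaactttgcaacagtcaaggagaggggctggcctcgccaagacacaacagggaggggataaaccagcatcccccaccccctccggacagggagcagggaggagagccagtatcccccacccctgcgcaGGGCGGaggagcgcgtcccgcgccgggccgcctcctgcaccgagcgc
Dpt: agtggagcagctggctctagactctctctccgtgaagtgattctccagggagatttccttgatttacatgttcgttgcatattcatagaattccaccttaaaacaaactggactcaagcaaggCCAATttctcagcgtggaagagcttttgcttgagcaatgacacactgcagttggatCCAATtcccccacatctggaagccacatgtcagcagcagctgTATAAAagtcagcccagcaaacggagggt
GGGCGG was found 3 times in the Gsn window and once in that of Cd34, and in 30.5% of 33469 rat promoters of this length. Dpt was the only one of the 7 with TATAAA, 29 bases before its start, a motif held by 12.9% of all. CCAAT was found in 3 of the 7 (Pdgfra, Dpt and Mfap5) and in 34% of all, and TGANTCA in Pdgfra alone of the 7 and in 6.34% of all. GGAATG was found in Osr1 alone and in 12.1% of all. These motifs overlapped nowhere in the shown windows. The Cd34 and Gsn windows, whose genes had trained minus detrained differences of opposite sign, shared a motif. A match describes the letters and not a bound site.

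Pdgfra, the receptor that defines the progenitors, had a level of -0.73 at the lowest, -0.16 at the median and 0.11 at the highest in SED. In DETR these were -1.02, -0.22 and 0.12, and in TR -0.55, -0.09 and 0.42. The groups overlapped widely, and the lowest array of each group was on slide 3. With slide as a term the difference was 0.23 ± 0.12 (SE, n = 8 per group) for trained minus sedentary, with an adjusted p of 0.503 in limma. It was 0.25 ± 0.15 for trained minus detrained (adjusted p = 0.548) and -0.02 ± 0.14 for detrained minus sedentary. Within slides, trained minus sedentary was 0.26 on slide 2 and 0.22 on slide 3. The direction of both trained comparisons was the same in every alternative tried, with each array left out included.

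Of the PDGF ligands and the other receptor, all 5 that were measured had detrained minus sedentary differences above 0, against 58.0% of all features. None had an unadjusted p under 0.05 in limma there. Pdgfc, a ligand of the alpha receptor, differed by 0.97 ± 0.29 between trained and sedentary muscle with an unadjusted p of 0.00270 in limma and an adjusted p of 0.280, and was well above background on 16 arrays. Pdgfa, the other ligand that acts mainly on this receptor, differed by 0.01 ± 0.09. The median of the 5 was 0.01 for trained minus sedentary and -0.14 for trained minus detrained, where 4 of 5 were below 0.

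Cd34, a surface sialomucin of progenitors, satellite cells and capillary endothelium, gave the smallest p of the markers. Its level was -3.67, -2.89 and -2.49 (lowest, median, highest) in SED, -3.17, -2.99 and -2.73 in DETR, and -4.26, -3.31 and -2.67 in TR. All DETR arrays lay within the range of SED, while the 4 TR arrays of slide 3, at -4.26, -4.22, -3.64 and -3.48, lay below every DETR array. Cd34 was well above background on all 8 SED and 8 DETR arrays and on 5 of 8 TR arrays, with TR 5, TR 7 and TR 8 below that limit.
The trained minus detrained difference was -0.86 ± 0.19 (0.55-fold, 95% interval 0.42 to 0.72), with an unadjusted p of 0.000133 in limma, rank 14 of 20324 features, and an adjusted p of 0.192. Trained minus sedentary was -0.47 ± 0.14 (adjusted p = 0.300) and detrained minus sedentary was 0.39 ± 0.17 (adjusted p = 1.00).
Within slide 3, the 4 TR arrays averaged -3.90 against -2.95 for the 2 DETR arrays and -2.98 for the 2 SED arrays, and the TR values overlapped those of neither group. Within slide 2 the 4 TR arrays averaged -2.88 against -2.68 for 4 SED arrays, with overlap. Within slide 1, 6 DETR arrays averaged -2.98 against -3.43 for 2 SED arrays, without overlap, while on slide 3 detrained minus sedentary was 0.03. TR and DETR shared only slide 3. Any fit without slide 3 compares them only through SED, with 2 arrays on slide 1 and 4 on slide 2.
The size of the Cd34 difference varied with the arrays, the slide term and the background correction. Without TR 5, TR 7 and TR 8 it was -0.60 ± 0.17 for trained minus detrained and -0.29 ± 0.13 for trained minus sedentary. Without slide 3 these were -0.65 ± 0.21 and -0.20 ± 0.14. With normexp background correction, which adds an offset of 50 to the signals, they were -0.06 ± 0.15 and 0.11 ± 0.12. Before scaling, the Cd34 signal on slide 3 was 6.5 to 41.5, below that offset, and the part of the offset was not tested. In the authors' table the same differences were -0.90 ± 0.20 and -0.54 ± 0.16. Without the slide term they were -0.42 ± 0.21 and -0.45 ± 0.21. With array weights trained minus detrained was -0.74 ± 0.15 with an adjusted p of 0.0263 in limma, the one alternative in which a marker was called. In that setting 133 of 20324 features were called, against 0 in the main model. The weights were lowest for TR 2 (0.13), TR 7 (0.14), TR 8 (0.16) and TR 5 (0.23).

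Markers of endothelium, which also makes Cd34, are given beside it. All 13 were tested, and 9 of 13 were above 0 for trained minus detrained, against 45.5% of all features, with a median of 0.12. Their log2 summed level ran from 4.06 to 4.58 in SED, from 3.96 to 4.81 in DETR and from 3.97 to 5.18 in TR. Kdr, a VEGF receptor, differed by 0.12 ± 0.17 and Pecam1, a junction protein, by -0.30 ± 0.34 in that comparison. Of 8 tested satellite cell markers, 6 were above 0, with a median of 0.17. The part of either cell type in the Cd34 values was not tested.

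Smoc2, a secreted calcium-binding matrix protein, had levels of 2.56, 3.37 and 3.56 (lowest, median, highest) in SED, 2.68, 3.30 and 3.74 in DETR and 1.95, 2.85 and 3.45 in TR. The groups overlapped, and the lowest SED and DETR arrays and the 4 lowest TR arrays were all on slide 3. Trained minus detrained was -0.38 ± 0.15 (adjusted p = 0.452 in limma) and trained minus sedentary -0.24 ± 0.12 (adjusted p = 0.478). Detrained minus sedentary was 0.14 ± 0.14. The 4 TR arrays of slide 3 averaged 2.26 against 2.84 for the 2 DETR arrays, without overlap. On slide 2 trained minus sedentary was -0.09. Without slide 3, trained minus detrained was -0.07 ± 0.21, and without the 3 dimmest arrays it was -0.17 ± 0.15. The fit without slide 3 compared TR with DETR only through SED. The second Smoc2 probe differed by -0.23 ± 0.21 for trained minus detrained and by -0.08 ± 0.16 for trained minus sedentary, in the same directions with smaller values.

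**Figure D2:**
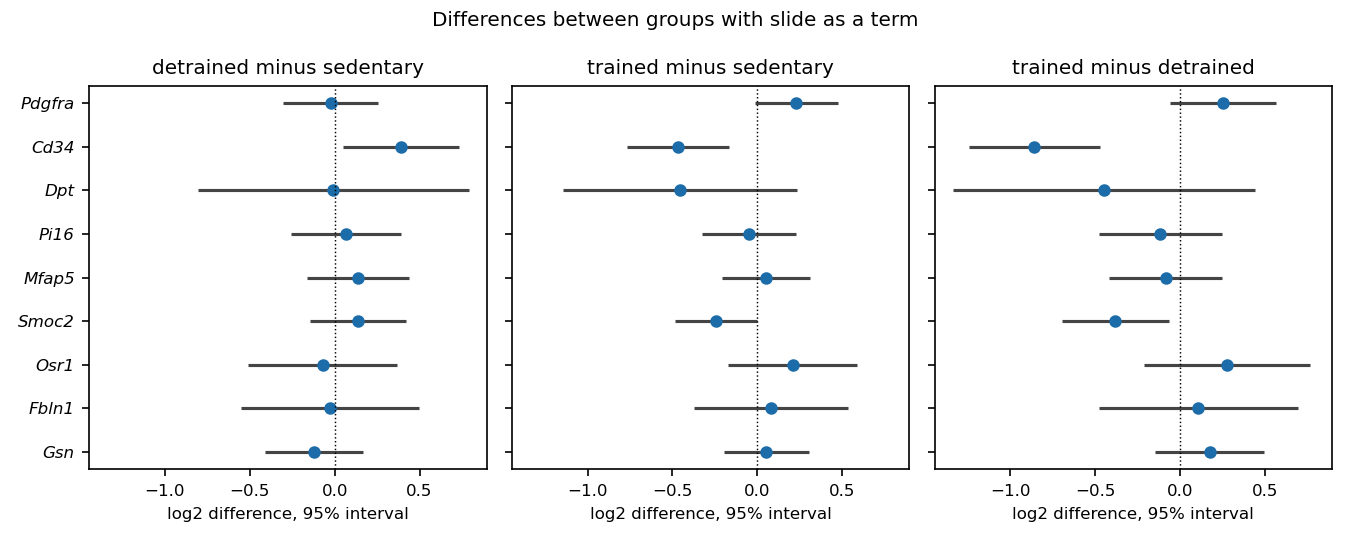
Differences between groups (x axis, log2, with 95% intervals) of the 9 tested markers from the model with slide as a term. The Cd34 interval lies off 0 in each comparison, above it for detrained minus sedentary and below it for both trained comparisons, and no marker passed after adjustment.

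Dpt, dermatopontin, an extracellular matrix protein of universal fibroblasts, had levels of -2.14, -1.47 and -1.28 in SED, -2.26, -1.59 and -1.22 in DETR and -4.41, -1.91 and -0.90 in TR (lowest, median, highest). Trained minus sedentary was -0.46 ± 0.33 and trained minus detrained -0.45 ± 0.43. The TR range held both the highest and the lowest array of all 24. The lowest was TR 2, on which neither spot of the probe was well above background. Without TR 2 the differences were -0.04 ± 0.14 and -0.17 ± 0.18.

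Pi16, a surface marker of the Dpt-positive universal fibroblasts, was read by a pair of probes that disagreed. The brighter probe has 1 spot per array, and its levels were -0.24, 0.02 and 0.15 in SED, -0.34, 0.01 and 0.59 in DETR and -0.57, 0.01 and 0.38 in TR. The groups had the same centre, with trained minus sedentary at -0.05 ± 0.13 and trained minus detrained at -0.11 ± 0.17.
The second probe had levels of -2.80, -2.21 and -0.63 in SED, -2.70, -2.33 and -0.43 in DETR and -2.44, -1.41 and 1.09 in TR. Its trained minus sedentary difference was 0.55 ± 0.25 and its trained minus detrained difference 0.68 ± 0.32, with adjusted p of 0.454 and 0.490 in limma over 23422 probes. The 8 arrays of slide 3 were the 8 highest, and the 3 dimmest arrays gave the 3 highest values. Before scaling, the arrays of slide 3 gave this probe a signal of 116 to 208, close to the 127 to 218 of slide 1, and slide 2 gave 158 to 341. The unscaled signal of the brighter probe was 98.4 to 491 on slide 3 and 675 to 1309 on slide 1. The median unscaled signal of the second probe was 159 on slide 3, 182 on slide 1 and 282 on slide 2, and that of the brighter probe 186, 1010 and 1271.

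**Figure D3:**
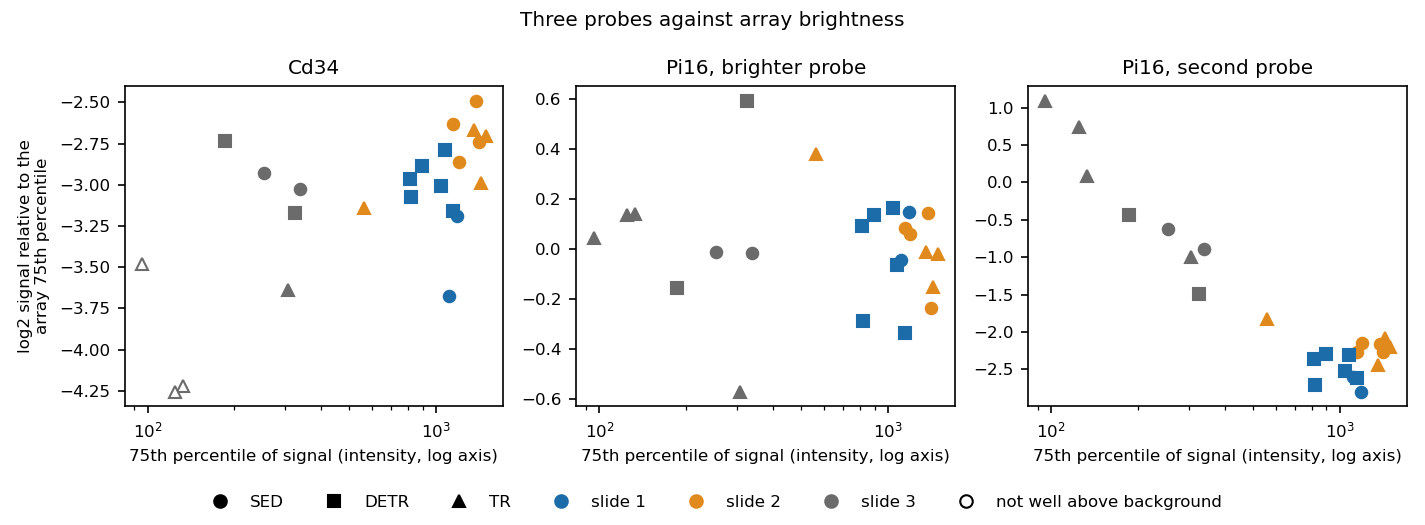
Level of Cd34 and of the 2 Pi16 probes (y axis, log2 signal relative to the 75th percentile) against the array's 75th percentile of signal (x axis, intensity, log axis). The second Pi16 probe is highest on the dimmest arrays, up to 1.09 on TR 7, and Cd34 is lowest on TR 8 and TR 5.

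Gsn, the actin-severing protein gelsolin, had levels of 4.46, 4.80 and 5.17 in SED, 4.43, 4.62 and 5.30 in DETR and 4.57, 4.87 and 5.56 in TR (lowest, median, highest). The groups overlapped. Trained minus detrained was 0.17 ± 0.16 and detrained minus sedentary -0.12 ± 0.14. Mfap5, a microfibril glycoprotein, had levels of 2.15, 3.07 and 3.33 in SED, 2.23, 3.07 and 3.26 in DETR and 1.89, 2.79 and 3.80 in TR. TR held both its highest arrays, on slide 2, and its lowest, on slide 3. Its trained minus sedentary difference was 0.05 ± 0.12 in the model of all arrays, and within slides it was 0.24 on slide 2 and -0.17 on slide 3.

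Osr1, a transcription factor of muscle connective tissue, was well above background on 17 of 24 arrays (6 SED, 7 DETR and 4 TR). Its levels were -5.97, -4.77 and -3.72 in SED, -4.75, -4.55 and -4.29 in DETR and -5.31, -4.82 and -3.56 in TR. All 4 slide 3 arrays of TR were below that limit, and the difference was 0.21 ± 0.18 for trained minus sedentary. Fbln1, the matrix glycoprotein fibulin-1, was well above background on 19 arrays. Its levels were -4.36, -4.05 and -3.69 in SED, -5.01, -4.00 and -3.39 in DETR and -4.82, -3.91 and -3.21 in TR, and its differences were within 0.11 of 0 in every comparison, with SE of 0.22 to 0.28.

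Across the 24 arrays, with each slide's mean removed, the markers varied partly in pairs. As a description over arrays that share slides and scaling, Pdgfra and Gsn had a Pearson correlation of 0.71 (0.67 without TR 2), Pi16 and Gsn 0.56, and Pdgfra and Pi16 0.51. Cd34 and Smoc2 had 0.56, and Pdgfra and Cd34 had -0.44. The slide-centred correlation with the log2 75th percentile of signal was 0.45 for Cd34, 0.49 for Smoc2 and 0.51 for Dpt, 0.36 for Fbln1, -0.13 for Osr1, -0.15 for Mfap5, -0.25 for Pi16, -0.30 for Pdgfra and -0.40 for Gsn. Without TR 2, in a check added after seeing the data, it was 0.40 for Cd34, 0.52 for Smoc2, 0.20 for Dpt and for Fbln1, -0.15 for Pdgfra and -0.28 for Gsn. The Dpt value thus rested largely on TR 2, and that of Mfap5 changed sign (0.12). The part of brightness in these differences was not tested.

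**Figure D4:**
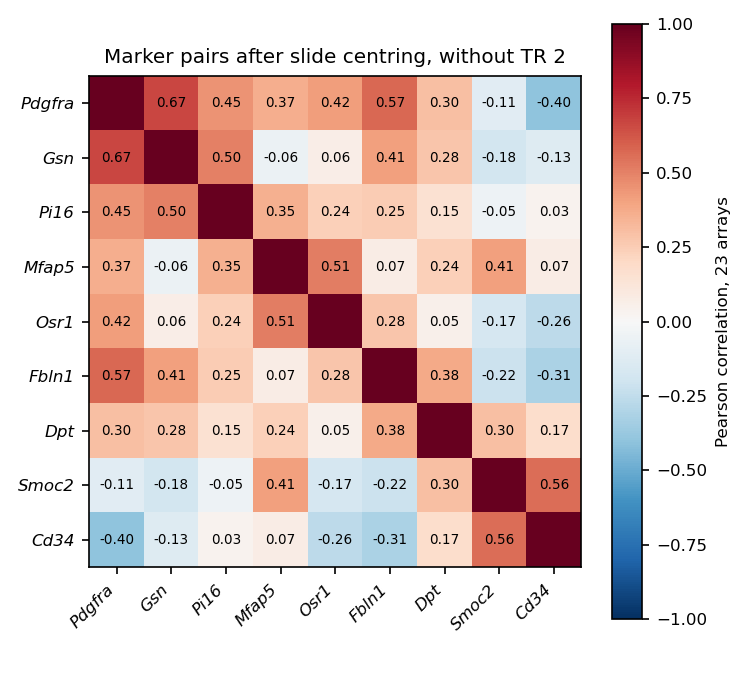
Pearson correlation between pairs of markers over 23 arrays after removal of slide means, without TR 2. Pdgfra and Gsn form the warmest pair at 0.67, and Cd34 is paired with Smoc2 (0.56) and opposed to Pdgfra (-0.40).

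The features most like each marker over the 24 slide-centred arrays are given by Pearson correlation, as a description. They were picked from the highest of 15855 features compared with each marker. Such a choice favours high values even among unrelated features. Whether any value exceeded what unrelated features would reach was not tested. For Pdgfra the features most like it were Clec10a (0.80), Cd83 (0.79) and Rin2 (0.78). For Cd34 they were Gpr142 (0.81), Rap2b (0.80) and Vom1r57 (0.79). For Smoc2 they were Tubb2b (0.80), Firrm (0.79) and Tcf3 (0.77). For Gsn they were Pcdhga7 (0.88), Mesd (0.88) and Dpp7 (0.86). For Dpt the values of 0.96 for RT1-A1, Tollip and Gsto1 became 0.80, 0.78 and 0.78 without TR 2. For Pi16, Flrt3 had 0.76 and Rin2 0.73. For Mfap5 they were Scand1, Anxa1 and 6330403K07Rikl (0.78 to 0.82), for Osr1 Sema6a, LOC365268 and Tmem97 (0.66 to 0.69), and for Fbln1 Fbxo27, Or1e26b and Klf5 (0.73 to 0.82).

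Other fibroblast genes gave a wider view of the same cells. Of 34 listed, 30 were tested, and the median difference was 0.02 for detrained minus sedentary, 0.10 for trained minus sedentary and 0.10 for trained minus detrained. At an unadjusted p under 0.05 in limma, 4 of 30 were on the higher side and 0 on the lower side for trained minus sedentary, against 6.32% and 4.11% of all features. For trained minus detrained 6 were on the higher and 1 on the lower side, against 4.2% and 5.73%, and for detrained minus sedentary 1 and 1, against 3.04% and 0.91%. None passed the adjusted threshold. Dcn, the collagen-binding proteoglycan decorin, differed by 0.78 ± 0.18 between trained and detrained muscle (adjusted p = 0.210 in limma), by 0.32 ± 0.14 between trained and sedentary and by -0.45 ± 0.16 between detrained and sedentary. These signs are opposite to those of Cd34 in each comparison. Efemp1, a fibulin, differed by 0.43 ± 0.14 and Gpx3, a secreted glutathione peroxidase, by 0.90 ± 0.36 between trained and detrained. Scara5, a ferritin receptor, differed by 0.41 ± 0.16 between trained and sedentary. Cd248, endosialin, was 0.31 ± 0.13 for detrained minus sedentary and Medag 0.42 ± 0.23.

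Collagen and matrix genes, the main products of these cells, were all measured. Of 24, 11 were above 0 and 13 below for trained minus sedentary, with a median of -0.01. At an unadjusted p under 0.05 in limma, 1 was higher and 3 were lower, against 6.32% and 4.11% of all features. Col1a2, a fibrillar collagen chain, differed by -0.39 ± 0.27 and Sparc, a collagen-binding protein, by -0.21 ± 0.17. The lowest and highest differences, named after their values were seen, were those of Col1a1 (-1.39 ± 0.58) and Mfap2 (0.63 ± 0.16, well above background on 16 arrays). For trained minus detrained 8 were above 0 and 16 below, with a median of -0.06. None passed the adjusted threshold.

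Markers of neighbouring cell types are given by their counts, and none passed the adjusted threshold. Beside them, 58.0% of all features were above 0 for detrained minus sedentary, 52.8% for trained minus sedentary and 45.5% for trained minus detrained. Of 11 adipocyte markers, 2 were above 0 for detrained minus sedentary, 8 for trained minus sedentary and 10 for trained minus detrained, with medians of -0.18, 0.24 and 0.70. Their log2 summed level ran from 4.03 to 4.94 in SED, 3.81 to 4.76 in DETR and 4.33 to 5.25 in TR, and Lpl and Fabp4, taken for their bright probes, differed by 0.21 ± 0.16 and -0.04 ± 0.23 for trained minus detrained. Fabp4 was the 1 marker of the 11 below 0 there. Larger differences, named after their values were seen, were those of Adipoq (1.20 ± 0.46), Cfd (0.87 ± 0.27) and Pck1 (2.23 ± 0.64, well above background on 13 arrays). Of 15 macrophage markers, 13 were above 0 for trained minus sedentary (median 0.33) and 14 for trained minus detrained (median 0.31), with summed levels of 3.84 to 5.03 in SED, 3.29 to 4.88 in DETR and 3.55 to 5.62 in TR. At an unadjusted p under 0.05 in limma, 6 macrophage markers were higher and 0 lower for trained minus sedentary, against 6.32% and 4.11% of all features. For trained minus detrained 7 were higher and 0 lower, against 4.2% and 5.73%. Adipocyte markers had 4 and 5 higher and 0 lower in these comparisons, and for detrained minus sedentary 0 higher and 1 lower. Of 13 tendon markers, 12 were below 0 for trained minus sedentary (median -0.79) and 11 for detrained minus sedentary (median -0.61). Trained minus detrained had 11 below 0 (median -0.18), and no tendon marker had an unadjusted p under 0.05 in limma in any comparison. Their summed levels were 3.80 to 6.38 in SED, 3.84 to 5.66 in DETR and 3.52 to 5.74 in TR. Of 12 genes of TGF-beta signalling and fibrosis, 5 were above 0 for trained minus sedentary (median -0.08) and 6 for trained minus detrained (median 0.01). For trained minus detrained, 11 of 13 smooth muscle and pericyte markers were above 0 (median 0.17). So were 7 of 9 Schwann cell markers (median 0.19) and 1 of 11 fast fibre genes (median -0.80). Fast fibre genes had 11 of 11 below 0 for trained minus sedentary (median -0.93) and 9 for detrained minus sedentary (median -0.24). The part of these cells in the marker values was not tested.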

How the data were processed

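Spot intensity values came from 24 scanner files made by the authors with Agilent Feature Extraction (version 11.5.11.1 per the submitters' processing notes, 11.5.1.1 per the file headers), background-subtracted and detrended within each array, per the file headers. A log2 table with gene symbols, deposited by the authors, has a median of 6.26 in every column.

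From 62976 spots, 4259 controls were left out. log2 processed signal minus the array's 75th percentile was averaged over spots without outlier flags, and a gene took its probe with the highest mean. Features well above background on at least 8 arrays were fitted with terms for group and slide in limma 3.58.1 under R 4.3.3, with Benjamini-Hochberg adjustment at 0.05, as tested on simulated data. Normexp used median spot signals with an offset of 50, since the planned mean signals were not used here.

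All 10 markers were named, with the 3 features most like each, the 3 other fibroblast genes of smallest p per comparison and the 2 genes with the brightest probes of other lists. Pdgfc, Adipoq, Cfd, Pck1, Col1a1 and Mfap2 were named after their values were seen. Some features that this rule takes are not reported here. Markers and lists were chosen with earlier results of these data known. Same-numbered rats' deviations correlated over 0.1 in 8 of 8 pairs for DETR and SED, but in 1 of 8 once slide was removed. They did so in 6 of 8 pairs for TR with either group and in 0 after slide. The design gives 8 rats per group, and their number limits the precision.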

Additional observations from a re-analysis of the deposited data

Results flagged for a closer look

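Fbln1 was lowest on DETR 8, at -5.01 against -4.15 on the nearest of the other DETR arrays, a gap of 0.53 of the group's range. The probe was not well above background on that array. Gsn was highest on DETR 7, at 5.30 against 4.73 on the nearest DETR array, a gap of 0.65 of the range. Both arrays lay on slide 3. These were the 2 among 30 groups of 8 arrays in which 1 array stood apart from its group. A rate of about 1 in 20 groups by chance assumes 8 values of the same distribution. That does not hold here, since slide means were not removed and DETR mixed 6 arrays of slide 1 with 2 of slide 3.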

How the results depend on the processing

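The count of called features was 0 in each comparison in the main model. With array weights it was 106 for detrained minus sedentary, 81 for trained minus sedentary and 133 for trained minus detrained. With the replicate number as a block beside slide it was 4 for trained minus sedentary and 35 for trained minus detrained, and 0 for detrained minus sedentary, and no marker was called. Trained minus sedentary gave 1 feature in the authors' table, 2 with normexp, 1 without slide 3 and 3 without the 3 dimmest arrays (TR 5, TR 7 and TR 8). Trained minus detrained gave 1 with only those groups fitted and 1 without the 3 dimmest arrays. Leaving out 1 array gave 0 to 3 for trained minus sedentary and 0 to 14 for trained minus detrained (3 without TR 2, 14 without TR 6). Fits without slide 3 or the dimmest arrays, and of single probes, were chosen after seeing the data. Normexp moved the median of all features to 0.15 for trained minus sedentary and 0.13 for trained minus detrained, from 0.01 and -0.03.

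Marker differences kept their direction and side of the threshold in 277 of 312 alternatives other than leaving out 1 array. Some of these could not change direction. A changed filter left every difference as it was, and averaging probes altered only Pi16 and Smoc2. Of those that did change, Cd34 for trained minus detrained passed with array weights. The others changed sign, mostly from values near 0, and the cause was not tested. For detrained minus sedentary, Dpt was 0.073 with array weights, 0.088 with only these groups, 0.12 without slide 3 and 0.036 without the dimmest arrays. Pi16 was -0.036 with array weights, -0.031 with probes averaged and -0.099 without slide 3. Without the slide term Cd34 was -0.030, Osr1 0.34 and Fbln1 0.0029. With normexp Osr1 was 0.025 and Fbln1 0.082. Fbln1 was 0.020 with only these groups, and without slide 3 Smoc2 was -0.019, Osr1 0.028 and Fbln1 0.16. For trained minus sedentary, normexp gave Cd34 0.11, Pi16 0.017, Mfap5 -0.046 and Gsn -0.10. Gsn was -0.028 with array weights and -0.026 without the dimmest arrays, Osr1 -0.069 in the authors' table, and Mfap5 -0.16 without the slide term. Pi16 was 0.25 with probes averaged, 0.0016 with only these groups and 0.036 without slide 3, where Fbln1 was -0.043. For trained minus detrained, Pi16 was 0.28 with probes averaged and 0.14 without slide 3, Osr1 -0.056 without the slide term and Gsn -0.0068 with normexp. Without slide 3 Mfap5 was 0.20 and Fbln1 -0.20. In that setting TR and DETR share no slide, so this comparison then runs only through SED.

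Leaving out 1 array changed a sign in 29 of 648 fits. For detrained minus sedentary the ranges were -0.12 to 0.14 for Dpt, -0.26 to 0.29 for Fbln1, -0.13 to 0.021 for Osr1, -0.17 to 0.10 for Pdgfra and -0.10 to 0.16 for Pi16. For trained minus sedentary they were -0.025 to 0.22 for Fbln1, -6.1e-05 to 0.099 for Gsn, -0.031 to 0.11 for Mfap5 and -0.11 to 0.029 for Pi16. For trained minus detrained they were -0.31 to 0.40 for Fbln1, -0.14 to 0.0095 for Mfap5 and -0.23 to 0.11 for Pi16. Cd34 kept its sign throughout, at -0.97 to -0.76 for trained minus detrained. Signal near background limits Thy1, Osr1, Fbln1 and, on the dimmest TR arrays, Cd34.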
